A study of Mus musculus with 8 samples.

Results

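The genes described here are 10 brakes on MAP kinase signalling: the dual-specificity phosphatases Dusp2, Dusp4, Dusp5, Dusp6, Dusp7 and Dusp10, the Sprouty genes Spry1 and Spry2, and the Spred genes Spred1 and Spred2. They were picked by symbol, with Dusp1 left out, and all 10 were found among the 23997 genes of the table. The choice was made with their values in these libraries known, so their levels and differences are a description and carry no test. A filter of at least 1 FPKM in at least 2 libraries kept 9 of the 10, all but Dusp4, and 12565 genes in all. FPKM is the number of fragments per kilobase of transcript, scaled to library size.

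Growth factor and cytokine receptors switch on the small GTPase RAS, which starts a chain of kinases that ends in the MAP kinase ERK. ERK activity induces genes whose products shut the chain down again: dual-specificity phosphatases take phosphate off MAP kinases, while Sprouty and Spred proteins act further up, around RAS and RAF. In blood cells the chain is driven by receptors such as KIT, FLT3 and those of the colony-stimulating factors.

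The RNA was from leukemic marrow of C57BL/6 mice, 8 libraries in 3 groups. AE+Meis2 carried the fusion AML1-ETO together with the homeobox gene Meis2 (n = 3, median latency of the group 171 days), AE9a+Meis2 carried the shorter form AML1-ETO9a together with Meis2 (n = 3, median 102 days), and AE9a carried AML1-ETO9a alone (n = 2, median 138 days). In all groups the donor marrow was collected 4 days after 5-fluorouracil, transduced, and given 48 hours later to lethally irradiated mice, whose surviving cells can add RNA. The labels do not give age, nor say whether libraries share a donor or transduction, so the spread between libraries may be partly technical. Below, the Meis2 comparison is AE9a+Meis2 against AE9a, the fusion comparison is AE+Meis2 against AE9a+Meis2, and the joint comparison sets AE+Meis2 against AE9a. They share libraries and are not independent.

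The library labelled AE+Meis2 replicate 1 was at the level of AE9a for Runx1t1 and Meis2, but not for sex-linked RNA. Whether this library was mislabelled could not be settled. Its Runx1t1, the ETO part of the fusion, was at 21.6 FPKM, with 223 and 218 FPKM in the other AE+Meis2 libraries and 10.3 to 26.8 FPKM over the AE9a+Meis2 and AE9a libraries. Its Meis2 was at 13.1 FPKM, with 38.2 and 81.5 FPKM in the other AE+Meis2 libraries, 604 to 1277 FPKM in AE9a+Meis2 and 6.99 and 13.2 FPKM in AE9a. Sex-linked RNA was also uneven. Eif2s3y, on the Y chromosome, reached 158, 176 and 7.06 FPKM in AE+Meis2, against 0.574 FPKM or less in AE9a+Meis2 and AE9a. Xist, on the X chromosome, was at 1.93, 5.79 and 99.0 FPKM in AE+Meis2, against 82.4 to 206 FPKM in the other groups. In both genes AE+Meis2 replicate 1 was like replicate 2 of its group. In the fusion and joint comparisons sex-linked RNA is therefore partly tied to the groups. AE9a+Meis2 replicate 3 and AE9a replicate 1 had values above 0 in 84.2% and 72.1% of 1536 olfactory, vomeronasal and similar genes normally silent in marrow, against at most 6.58% in the rest. Eef1a1, a translation factor gene that every cell uses, is listed at 0 in all 3 AE9a+Meis2 libraries, against 5756 to 8302 FPKM in AE+Meis2 and AE9a, so a listed 0 can be a failed estimate. None of the 10 genes is listed at 0. Relative depth, a rough estimate from steps among low values, spanned 8.28-fold, and absolute depth is unknown. The granule enzyme gene Mpo, a marker of myeloid marrow, was at 117 FPKM or more in every library.

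Dusp2 (chromosome 2, 127336159 to 127338377 on mouse GRCm38) encodes a nuclear phosphatase of activated blood cells and had the largest group difference. Dusp6 (chromosome 10, 99263231 to 99267489), the cytoplasmic ERK phosphatase, and Spry1 (chromosome 3, 37639947 to 37644599) had the widest ranges over libraries. Dusp5 (chromosome 19, 53529145 to 53541809) encodes a nuclear ERK phosphatase, and its promoter alone held CArG boxes, the motif of serum response factor. The 250 bases before the annotated start of these 4 genes are shown for those reasons, on the plus strand, from RefSeq on GRCm38.p6. Capitals mark matches to the motifs searched, apart from the SP1 letters.
Dusp2 (chr2:127335909-127336158): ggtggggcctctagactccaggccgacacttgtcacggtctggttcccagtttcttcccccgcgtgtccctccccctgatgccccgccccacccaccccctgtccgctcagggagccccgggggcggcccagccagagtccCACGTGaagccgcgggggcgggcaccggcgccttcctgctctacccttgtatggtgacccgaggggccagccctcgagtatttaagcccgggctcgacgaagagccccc
Dusp5 (chr19:53528895-53529144): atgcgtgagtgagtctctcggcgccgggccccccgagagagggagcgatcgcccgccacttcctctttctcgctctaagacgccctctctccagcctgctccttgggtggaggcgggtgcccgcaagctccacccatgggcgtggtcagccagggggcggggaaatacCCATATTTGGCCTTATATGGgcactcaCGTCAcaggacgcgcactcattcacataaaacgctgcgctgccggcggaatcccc
Dusp6 (chr10:99262981-99263230): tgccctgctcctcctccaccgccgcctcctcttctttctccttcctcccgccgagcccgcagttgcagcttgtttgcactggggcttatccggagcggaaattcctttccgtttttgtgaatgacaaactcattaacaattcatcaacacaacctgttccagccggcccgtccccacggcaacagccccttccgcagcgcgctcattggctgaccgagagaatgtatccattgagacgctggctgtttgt
Spry1 (chr3:37639697-37639946): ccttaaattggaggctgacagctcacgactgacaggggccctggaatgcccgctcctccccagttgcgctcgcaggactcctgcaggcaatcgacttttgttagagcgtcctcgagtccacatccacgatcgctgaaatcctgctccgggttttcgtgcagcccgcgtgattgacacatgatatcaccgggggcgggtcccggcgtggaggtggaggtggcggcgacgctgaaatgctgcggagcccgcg

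Such windows were read for 9 of the 10 genes, all but Dusp4, and each motif was searched on both strands. The window of Dusp7 ends at base 106368631, past its gene start at 106368560, so part of it lies inside the gene. The RUNX letters TGTGGT, which the RUNX1 part of the fusion is known to bind, were in 0 of the 9 windows and in 14.0% of 32851 windows of all genes. The AP-1 letters TGANTCA were in 0 of 9 and in 6.75% of all windows. Dusp2 held the E-box CACGTG, found in 6.02% of all windows, 109 bases before its start. In Dusp5 the CArG boxes began 82 and 72 bases before the start and lay end to end, and 1.47% of all windows hold such a box. The letters TGACG of the cyclic AMP response element were in Dusp5 and Spred2, 2 of 9 windows, and in 17.8% of all. The SP1 letters GGGCGG were in 6 of 9 windows and in 32.7% of all. GC content was 56% to 77.2% in the 9 windows, with a median of 52.4% over all. A match describes letters only, and a missing match says no more than that these letters are not in this window.

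Dusp2 was the 1 gene of the 10 whose AE+Meis2 libraries all lay above every other library. It was at 29.4, 34.6 and 39.4 FPKM in AE+Meis2, against 10.9, 11.9 and 12.8 FPKM in AE9a+Meis2 and 7.05 and 14.1 FPKM in AE9a. The AE9a+Meis2 values lay inside the range of AE9a. The group means were 34.5 ± 5.03 FPKM in AE+Meis2, 11.9 ± 0.967 FPKM in AE9a+Meis2 and 10.6 ± 5.00 FPKM in AE9a (SD, n = 3, 3 and 2). In log2(FPKM + 1), a scale that shrinks the changes of low genes, the difference was 1.45 ± 0.26 in the fusion comparison, 1.67 ± 0.30 in the joint one and 0.22 ± 0.30 in the Meis2 comparison (± is limma's standard error). Leaving out the library labelled AE+Meis2 replicate 1, the fusion difference of Dusp2 was 1.56 and the joint one 1.78. The Meis2 difference was -0.24 without AE9a replicate 1 and 0.67 without AE9a replicate 2. Of all tested genes, 7% had AE+Meis2 wholly above AE9a+Meis2, 9.96% had it wholly above AE9a, and 3.46% had both.

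Dusp2 is well known from T cells. T-cell markers, 6 of 7 listed being in the table, summed to 31.2, 38.9 and 23.3 FPKM in AE+Meis2, 9.47 to 52.6 FPKM in AE9a+Meis2 and 16.7 to 21.6 FPKM in AE9a. Cd3e, a chain of the T-cell receptor complex, was at 3.12 to 5.92 FPKM in AE+Meis2, 1.84 to 6.51 FPKM in AE9a+Meis2 and 2.38 to 3.22 FPKM in AE9a. All AE+Meis2 sums lay above both AE9a sums, as did those libraries for Cd3d, Cd3g and Cd8a. For Cd3e, Cd4 and Lck these groups overlapped, with Cd4 at 1.23 to 2.42 FPKM in AE+Meis2 and 1.81 and 1.97 FPKM in AE9a. The sums of AE+Meis2 and AE9a+Meis2 overlapped. The highest T-cell sum was in AE9a+Meis2 replicate 3, whose Dusp2 was at 12.8 FPKM and which is one of the libraries with values in silent genes. Stromal and endothelial markers summed to 33.2 to 48.3 FPKM in AE+Meis2, 17.6 to 25.5 FPKM in AE9a+Meis2 and 24.1 to 41.2 FPKM in AE9a, with AE+Meis2 above AE9a+Meis2 for the sum, but of its 8 genes only Emcn kept these groups apart. The part of T cells, of stroma, and of the uneven sex-linked RNA in the level of Dusp2 was not tested. In bulk marrow, fewer cells of a type and less RNA per cell cannot be told apart.

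The other nuclear phosphatases were low. Dusp5 was at 2.86, 0.868 and 3.64 FPKM in AE+Meis2, against 0.829, 0.753 and 2.24 FPKM in AE9a+Meis2 and 1.86 and 3.46 FPKM in AE9a, and its groups overlapped in all 3 comparisons. Its log2 difference was -0.71 ± 0.48 in the Meis2 comparison, 0.56 ± 0.43 in the fusion comparison and -0.15 ± 0.48 in the joint one. Leaving out any 1 library gave -1.03 to -0.39 in the Meis2 comparison, 0.30 to 0.96 in the fusion comparison and -0.47 to 0.25 in the joint one, and the joint value turned to 0.25 without AE+Meis2 replicate 2 and to 0.17 without AE9a replicate 2. Dusp4 (chromosome 8, 34807610 to 34819894), a nuclear phosphatase of ERK and JNK, was at 0.731, 0.333 and 0.351 FPKM in AE+Meis2, against 0.118, 0.337 and 0.513 FPKM in AE9a+Meis2 and 0.407 and 0.522 FPKM in AE9a. It stayed below 1 FPKM in every library, with overlapping groups. Genes on the opposite strand are annotated over exons of Dusp5 and Spry1, and the kit does not mark strand, so reads of these partners cannot be told apart from theirs.

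Dusp6 is often used to read ERK activity. It was at 9.26, 5.23 and 48.0 FPKM in AE+Meis2, against 30.6, 12.7 and 20.1 FPKM in AE9a+Meis2 and 18.3 and 13.2 FPKM in AE9a. Both the lowest and the highest library belonged to AE+Meis2, 9.18-fold apart. The group means were 20.8 ± 23.6 FPKM in AE+Meis2, 21.1 ± 8.95 FPKM in AE9a+Meis2 and 15.8 ± 3.61 FPKM in AE9a (SD, n = 3, 3 and 2), closer together than the AE+Meis2 libraries. The log2 difference was -0.52 ± 0.73 in the fusion comparison, but 0.10 without AE+Meis2 replicate 2 and -1.39 without replicate 3. In the joint comparison it was -0.18 ± 0.82, and in the Meis2 comparison 0.34 ± 0.82.

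Dusp7 (chromosome 9, 106368560 to 106375724), a close cytoplasmic relative of Dusp6, was at 3.53, 2.54 and 6.55 FPKM in AE+Meis2, against 6.14, 6.26 and 5.71 FPKM in AE9a+Meis2 and 4.57 and 4.24 FPKM in AE9a. All 3 AE9a+Meis2 libraries lay above both AE9a libraries, an order shared by 13.1% of tested genes, and the log2 difference was 0.38 ± 0.33. In the fusion comparison the groups overlapped, at -0.51 ± 0.30, or -0.27 without AE+Meis2 replicate 2 and -0.81 without replicate 3. Dusp10 (chromosome 1, 184034381 to 184075636) prefers the stress kinases JNK and p38. Its levels were 4.92, 0.970 and 1.06 FPKM in AE+Meis2, against 1.68, 1.75 and 3.13 FPKM in AE9a+Meis2 and 3.04 and 2.00 FPKM in AE9a. Its highest library was the one labelled AE+Meis2 replicate 1. Without it the fusion difference of Dusp10 was -0.63, in place of -0.11 ± 0.46.

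**Figure D1:**
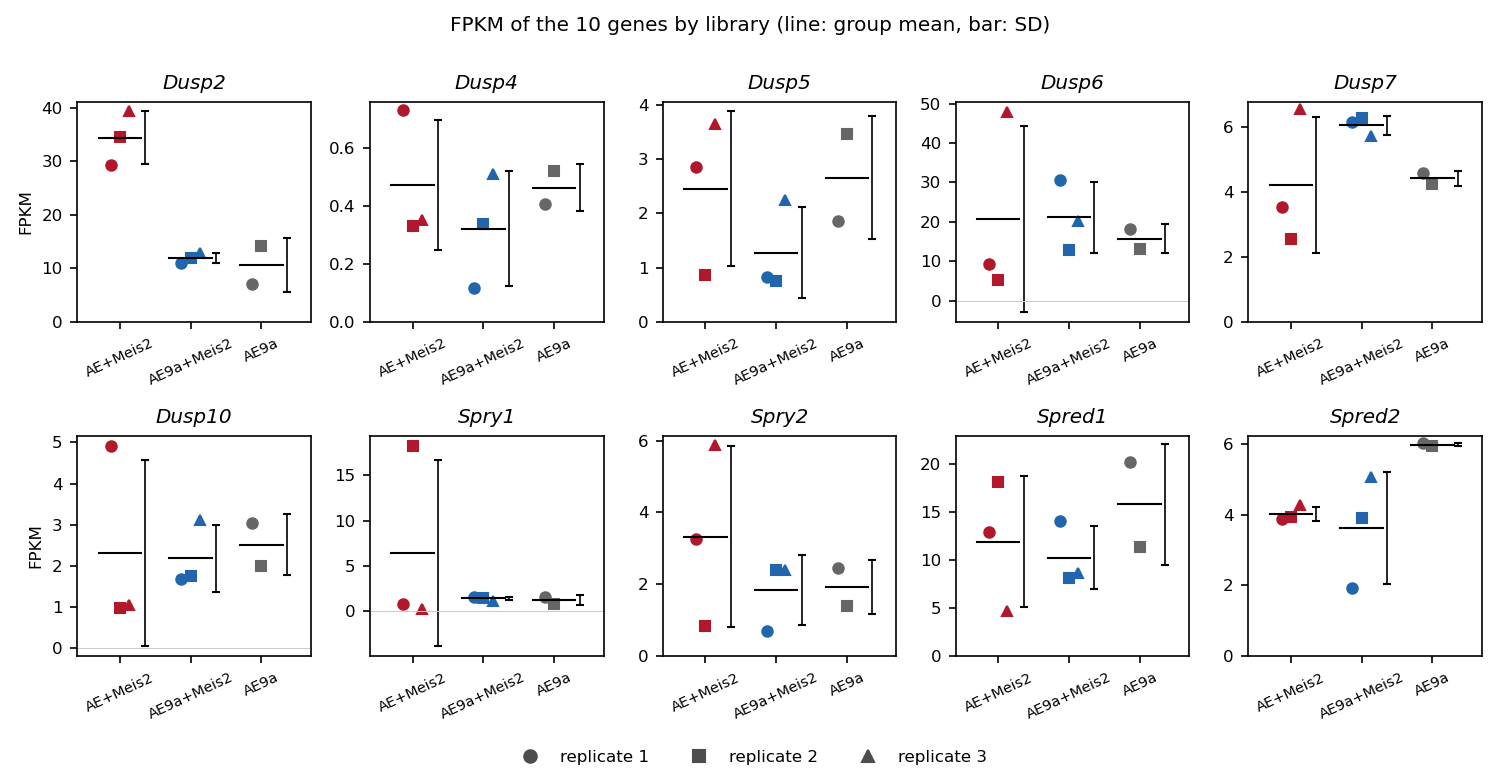
FPKM (vertical axes, linear) of the 10 genes in the 8 libraries, with AE+Meis2 left, AE9a+Meis2 in the middle and AE9a right. Symbols give the replicate number, lines the group mean and bars the SD. The AE+Meis2 points of Dusp2, 29.4 to 39.4 FPKM, lie above all others, while Dusp6, Dusp7, Dusp10 and Spry1 have both their highest and lowest points within AE+Meis2.

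Sprouty proteins hold back RAS activation below receptor tyrosine kinases. Spry1 was at 0.767, 18.3 and 0.222 FPKM in AE+Meis2, against 1.51, 1.50 and 1.17 FPKM in AE9a+Meis2 and 1.58 and 0.793 FPKM in AE9a. AE+Meis2 replicate 2 stood 82.3-fold above replicate 3, and every other library was at 1.58 FPKM or less. The log2 difference was 0.54 ± 0.95 in the fusion comparison and 0.69 ± 1.06 in the joint one, and without that library -0.70 and -0.55.

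Spry2 (chromosome 14, 105891947 to 105896819) was at 3.26, 0.839 and 5.88 FPKM in AE+Meis2, against 0.704, 2.40 and 2.39 FPKM in AE9a+Meis2 and 2.46 and 1.40 FPKM in AE9a. Its highest library was AE+Meis2 replicate 3, the lowest one for Spry1, and all groups overlapped. The log2 difference was 0.49 ± 0.53 in the fusion comparison, 0.39 ± 0.59 in the joint one and -0.10 ± 0.59 in the Meis2 comparison. With 1 library left out it ran over -0.36 to 0.24 in the Meis2 comparison, 0.05 to 1.00 in the fusion comparison and -0.04 to 0.91 in the joint one, and without AE+Meis2 replicate 3 the fusion value was 0.05.

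Spred proteins bring neurofibromin, which turns RAS off, to the membrane. Spred1 (chromosome 2, 117121071 to 117182279) was at 12.9, 18.1 and 4.63 FPKM in AE+Meis2, against 14.0, 8.06 and 8.64 FPKM in AE9a+Meis2 and 20.2 and 11.3 FPKM in AE9a. The groups overlapped, with a log2 difference of -0.56 ± 0.54 in the Meis2 comparison, 0.06 ± 0.48 in the fusion comparison and -0.50 ± 0.54 in the joint one. Leaving out 1 library gave -0.95 to -0.17 in the Meis2 comparison, -0.31 to 0.58 in the fusion comparison and -0.89 to 0.01 in the joint one, and the joint value was 0.01 without AE+Meis2 replicate 3. Spred2 (chromosome 11, 19924442 to 20024026) was at 3.87, 3.93 and 4.26 FPKM in AE+Meis2, against 1.92, 3.90 and 5.07 FPKM in AE9a+Meis2 and 6.02 and 5.96 FPKM in AE9a. Both AE9a libraries lay above all 6 libraries of the other groups. The share of tested genes with AE9a above both groups at once is not reported here, so nothing is read from this order. The log2 difference was -0.66 ± 0.33 in the Meis2 comparison and -0.48 ± 0.33 in the joint one, and 10.7% and 8.66% of tested genes lay wholly below AE9a there. Without AE9a+Meis2 replicate 1 the Meis2 difference was -0.36. In the fusion comparison Spred2 differed by 0.18 ± 0.29, or -0.12 to 0.41 with 1 library left out.

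**Figure D2:**
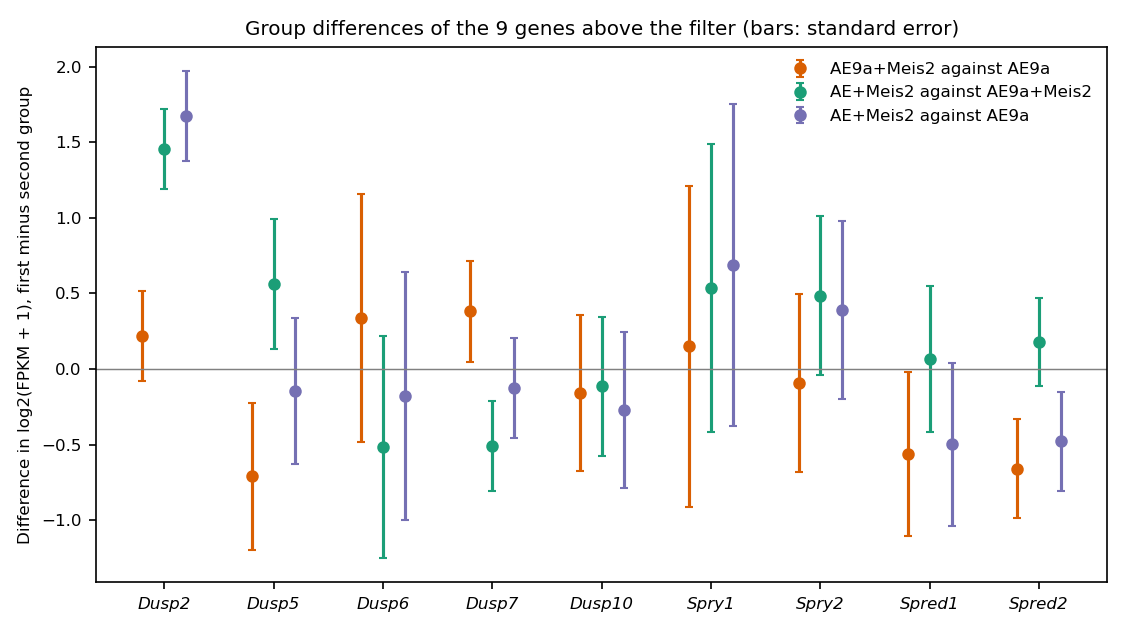
Difference in log2(FPKM + 1), first minus second group (vertical axis), of the 9 genes above the filter in the 3 comparisons (colours), with limma's standard error as bars. Dusp2 stands at 1.45 and 1.67 where AE+Meis2 is the first group, and the bars of Spry1 and Dusp6 are the widest.

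By mean FPKM over the 8 libraries the order was Dusp2 (20.0), Dusp6 (19.7), Spred1 (12.2), Dusp7 (4.94), Spred2 (4.37), Spry1 (3.23), Spry2 (2.42), Dusp10 (2.32), Dusp5 (2.06) and Dusp4 (0.414). The ranges of all neighbours in this order overlapped except those of Dusp5 and Dusp4. The place of Spry1 rests on 1 library, its median being 1.34 FPKM.

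limma with Benjamini-Hochberg adjustment over all tested genes called 0 of the 9 genes in each comparison. It called 0.0478% of tested genes in the Meis2 comparison, 0.0398% in the fusion comparison and 0.0318% in the joint one. At an unadjusted p under 0.05 the members numbered 0, 1 and 1 in that order, Dusp2 both times, beside 3.06%, 7.15% and 5.98% of tested genes. Nothing is read from these counts, since the genes were chosen with the values known. Estimates were above 0 for 4, 6 and 3 of the 9, and for 49.8%, 54.9% and 55.9% of tested genes. Their median log2 difference was -0.10, 0.18 and -0.15, beside -0.0011, 0.04 and 0.06 over all tested genes.

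Wide contrasts lay inside AE+Meis2. Between its replicates 3 and 2, 6 of the 10 genes differed by a log2 of more than 1, beside 30.6% of tested genes. Dusp6 was higher in replicate 3 by 2.98, Spry2 by 1.90, Dusp5 by 1.31 and Dusp7 by 1.09, an excess past 1 that 17.7% of tested genes shared. For Spry1 the difference was -3.98 and for Spred1 -1.76, where 12.9% of tested genes lay past 1 in that direction. Replicate 2 or 3 held an extreme of 8 of the 10 genes and of 75.5% of tested genes. The range within AE+Meis2 exceeded that of the group means for 8 of the 10 and for 78.5% of tested genes. The shares for extremes and for ranges are near the background and no result about these genes. With 1 library on each side the contrast has no replicate check.

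Cell markers and stress genes moved with this contrast. The 8 neutrophil markers summed to 5934, 636 and 46436 FPKM in AE+Meis2, 1677 to 15125 FPKM in AE9a+Meis2 and 2139 to 6706 FPKM in AE9a. The 6 megakaryocyte markers summed to 95.2, 358 and 13.8 FPKM in AE+Meis2, 12.2 to 17.0 FPKM in AE9a+Meis2 and 17.7 to 24.0 FPKM in AE9a, and 7 of 8 monocyte markers to 375, 283 and 635 FPKM in AE+Meis2, 676 to 2069 FPKM in AE9a+Meis2 and 416 to 446 FPKM in AE9a. No marker of these lists was at 0 throughout a group. The 16 stress and dissociation genes, which respond quickly to the handling of tissue, summed to 1228, 244 and 2848 FPKM in AE+Meis2, 2109, 1300 and 2105 FPKM in AE9a+Meis2 and 261 and 529 FPKM in AE9a. By these sums AE+Meis2 replicate 3 was high in neutrophil and stress genes, and replicate 2 in megakaryocyte genes. The neutrophil marker Prtn3 was at 604 FPKM in AE+Meis2 replicate 3, below the 724 FPKM of AE9a+Meis2 replicate 2. In AE+Meis2 replicates 2 and 3, erythroid markers summed to 1938 and 491 FPKM, and stem and progenitor markers to 564 and 241 FPKM. B-cell markers summed to 72.0 and 36.5 FPKM there, and mast cell markers to 1353 and 1347 FPKM. The megakaryocyte sum of replicate 2 was mostly Itga2b (255 FPKM) and Pf4 (82.4 FPKM). Gp9 and Vwf were also highest there, but Gp1bb was at 0.0747 FPKM, against 0.683 and 0.591 FPKM in replicates 1 and 3. Ppbp, at 1.41 FPKM, lay below both AE9a libraries. Among stress genes, Atf3 was at 8.87 FPKM in replicate 3, below the 14.3 to 43.8 FPKM of AE9a+Meis2. Jun (93.5 FPKM, against 94.1 to 195 FPKM), Hspa1a and Hspa1b also lay below all AE9a+Meis2 libraries there. Egr1, Dnajb1, Hspa1a and Hspa1b were higher in replicate 1 than in replicate 3. The largest parts of the stress sum of replicate 3 were Zfp36 (872 FPKM) and Fos (858 FPKM). The part of these cells and stress genes in the levels of Dusp5, Dusp6, Dusp7, Spry1, Spry2 and Spred1 was not tested.

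**Figure D3:**
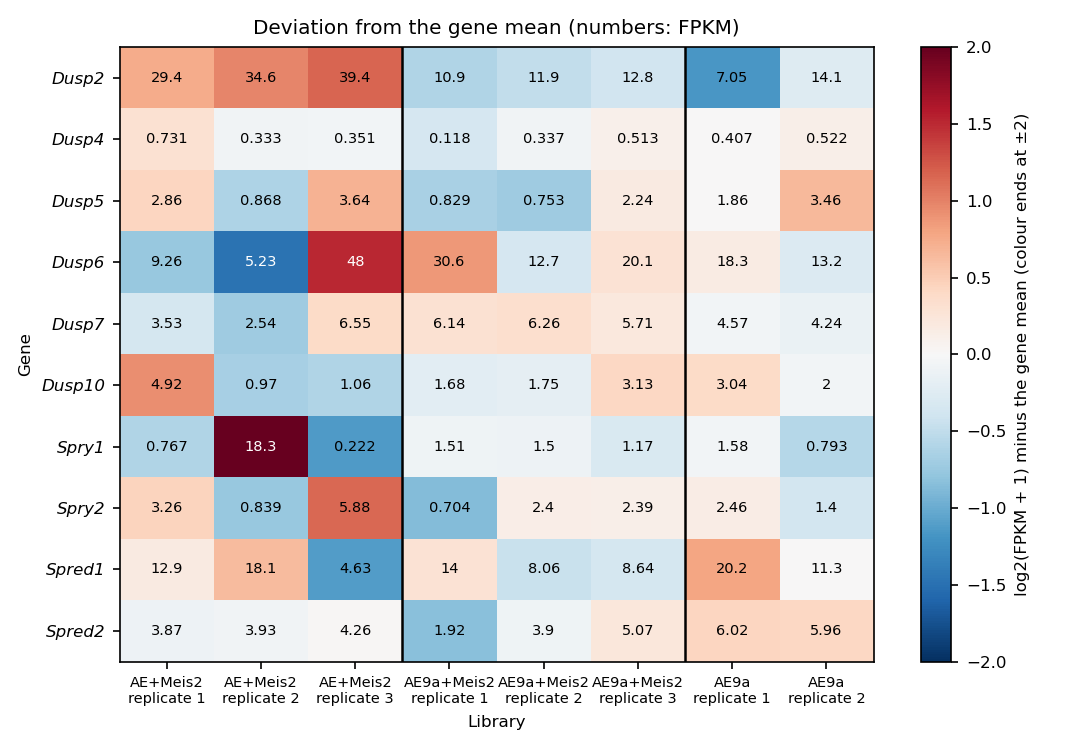
Deviation of log2(FPKM + 1) from the gene's mean (colour) for the 10 genes (rows) in the 8 libraries (columns, lines between groups), with FPKM in the cells. AE+Meis2 replicates 2 and 3 have opposite colours for Dusp6 (5.23 and 48.0 FPKM), Spry1 (18.3 and 0.222 FPKM) and Spry2 (0.839 and 5.88 FPKM), and Dusp2 is above its mean in all 3 AE+Meis2 libraries.

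The rest of the pathway, with stress and dissociation genes, was followed in lists of 97 further genes, of which 82 were tested. In each comparison limma called 0 of the 82 after Benjamini-Hochberg adjustment over all genes. At an unadjusted p under 0.05 there were 11 in the Meis2 comparison, 11 in the fusion comparison and 4 in the joint one, or 13.4%, 13.4% and 4.88% of the 82. Over all tested genes the shares were 3.06%, 7.15% and 5.98%, so the joint share of the lists was no higher than the background. The lists were chosen with earlier results of these data known, so no excess is read from the other 2 shares. In the Meis2 comparison 5 of the 11 were stress and dissociation genes and 0 were of the RAS-ERK core. The smallest limma adjusted p-values were 0.48, 0.32 and 0.72.

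Of the family relatives 7 of 13 were tested, with medians of -0.12 in the Meis2 comparison, -0.26 in the fusion comparison and -0.34 in the joint one. Dusp1, an early phosphatase induced by stress and growth factors, was at 299, 35.1 and 991 FPKM in AE+Meis2, against 392, 225 and 381 FPKM in AE9a+Meis2 and 15.3 and 71.3 FPKM in AE9a. AE9a+Meis2 lay wholly above AE9a, with a log2 difference of 3.24 ± 1.29 (limma adjusted p = 1). Dusp16, a phosphatase of JNK, was at 6.81, 5.48 and 4.40 FPKM in AE+Meis2, against 1.64, 1.60 and 1.52 FPKM in AE9a+Meis2 and 4.06 and 8.61 FPKM in AE9a. AE9a+Meis2 lay below both other groups, with 1.33 ± 0.29 in the fusion comparison (limma adjusted p = 0.35) and -1.43 ± 0.32 in the Meis2 comparison (limma adjusted p = 0.82). Dusp22, an atypical phosphatase, was at 6.18, 3.81 and 7.64 FPKM in AE+Meis2, against 29.5, 13.4 and 22.8 FPKM in AE9a+Meis2 and 17.5 and 6.18 FPKM in AE9a. Its AE+Meis2 libraries lay below all of AE9a+Meis2, at -1.71 ± 0.45 (limma adjusted p = 0.49). Spry4, another Sprouty, was at most 0.327 FPKM in any library.

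The RAS-ERK core was tested in full, 20 of 20 genes, with medians of 0.02 in the Meis2 comparison, 0.14 in the fusion comparison and 0.16 in the joint one, and none had an unadjusted p under 0.05. Of the RAS GTPase activators and other inhibitors 11 of 13 were tested, with medians of -0.14 in the Meis2 comparison, -0.18 in the fusion comparison and -0.17 in the joint one. Rasa3, which switches RAS-family GTPases off, was at 30.5, 13.9 and 43.4 FPKM in AE+Meis2, against 64.7, 51.0 and 72.9 FPKM in AE9a+Meis2 and 34.9 and 24.9 FPKM in AE9a. AE+Meis2 lay below AE9a+Meis2 for Rasa3 at -1.20 ± 0.40 (limma adjusted p = 0.62) and for its relative Rasa4 at -0.99 ± 0.27 (limma adjusted p = 0.52). Of the JNK and p38 kinases 12 of 13 were tested, with medians of 0.19 in the Meis2 comparison, -0.0034 in the fusion comparison and 0.04 in the joint one.

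Of the other genes induced by ERK 8 of 12 were tested, with medians of -0.17 in the Meis2 comparison, -0.55 in the fusion comparison and -0.58 in the joint one. Etv5, an ETS factor, was at 4.83, 2.17 and 2.52 FPKM in AE+Meis2, against 0.609, 0.921 and 2.91 FPKM in AE9a+Meis2 and 5.68 and 3.77 FPKM in AE9a. AE9a+Meis2 lay below AE9a, at -1.30 ± 0.46 (limma adjusted p = 1). Ier3, an early response gene of the same list, had the other order: it was at 60.9, 5.22 and 41.1 FPKM in AE+Meis2, against 52.4, 53.5 and 61.5 FPKM in AE9a+Meis2 and 30.8 and 21.1 FPKM in AE9a, with AE9a+Meis2 above AE9a at 1.10 ± 0.87 (limma adjusted p = 1). Of the upstream receptors 10 of 10 were tested, with medians of 0.15 in the Meis2 comparison, -0.37 in the fusion comparison and -0.20 in the joint one. Flt3, a receptor of early progenitors, was at 7.57, 4.93 and 6.49 FPKM in AE+Meis2, against 53.3, 28.1 and 13.1 FPKM in AE9a+Meis2 and 13.5 and 9.90 FPKM in AE9a, with -1.96 ± 0.47 in the fusion comparison (limma adjusted p = 0.42). AE+Meis2 lay wholly below AE9a+Meis2 for Flt3, as for Dusp22, Rasa3 and Rasa4. The share of all tested genes in this order is not reported here, so nothing is read from these separations. Kit, the receptor of stem cell factor, was at 46.6, 224 and 16.3 FPKM in AE+Meis2, against 50.7, 53.7 and 42.4 FPKM in AE9a+Meis2 and 66.5 and 121 FPKM in AE9a. Like Spry1, it was highest in AE+Meis2 replicate 2, as were 25.1% of tested genes, and a link between Kit and Spry1 was not tested.

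Of the stress and dissociation genes 14 of 16 were tested, with medians of 1.94 in the Meis2 comparison, -0.75 in the fusion comparison and 1.04 in the joint one. All 14 had estimates above 0 in the Meis2 comparison and in the joint one. Fos, an early response gene, was at 401, 23.9 and 858 FPKM in AE+Meis2, against 691, 448 and 739 FPKM in AE9a+Meis2 and 25.9 and 92.7 FPKM in AE9a. Egr1, another, differed by 2.16 ± 0.87 in the Meis2 comparison, 0.10 ± 0.78 in the fusion comparison and 2.26 ± 0.87 in the joint one. In the Meis2 comparison 12 of the 14 had AE9a+Meis2 wholly above AE9a, as had 1 of the 10 phosphatase and inhibitor genes, Dusp7, beside 13.1% of tested genes.

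**Figure D4:**
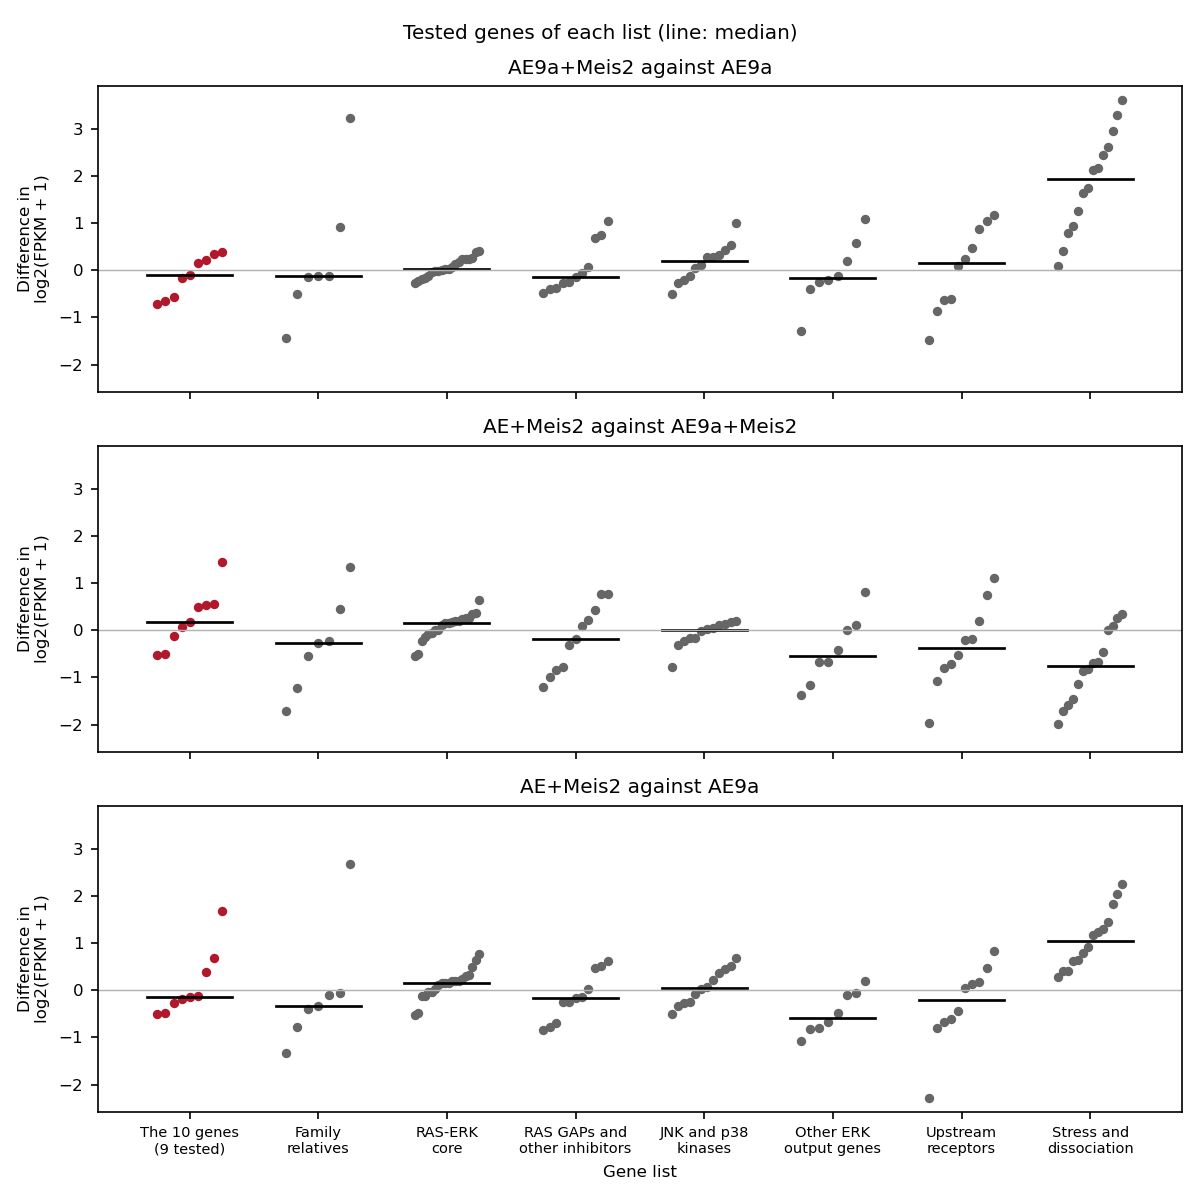
Difference in log2(FPKM + 1), first minus second group (vertical axes), of every tested gene of each list (points, sorted within a list) in the 3 comparisons (panels), with medians as lines and the 9 tested of the 10 genes in red. The stress and dissociation median is 1.94 in the upper panel, -0.75 in the middle and 1.04 in the lower, while the red medians lie between -0.15 and 0.18.

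The genes nearest in pattern were sought among 8706 genes by the mean absolute distance of centred log2(FPKM + 1) values over the 8 libraries, which share depth and composition. Nearest to Dusp2 were Trim12c (distance 0.24) and Stk17b, a kinase gene (0.27), beside a mean deviation of 0.72 for Dusp2 itself. Stk17b was at 68.2, 68.3 and 134 FPKM in AE+Meis2, against 35.3, 32.5 and 51.4 FPKM in AE9a+Meis2 and 28.2 and 39.6 FPKM in AE9a. Nearest to Dusp6 were Tpm4, a tropomyosin (0.17), and the transcription factor Arid3a (0.18). Tpm4 was at 44.3, 22.6 and 167 FPKM in AE+Meis2, against 92.9, 55.7 and 61.9 FPKM in AE9a+Meis2 and 73.3 and 48.4 FPKM in AE9a. Like Dusp6, it had its extremes in AE+Meis2 replicates 2 and 3. Nearest to Spry1 were Fn3krp (0.27) and Arl14ep (0.28), at 63.6 and 155 FPKM in AE+Meis2 replicate 2. A distance reads against the gene's own mean deviation, which was 0.71 for Dusp6 and 0.71 for Spry1. Spry2 lay nearest to Lfng, a modifier of Notch (distance 0.18, own deviation 0.50), Spred1 to the heme oxygenase gene Hmox1 (0.17, 0.48), and Dusp7 to Pdlim5 (0.08, 0.31). The matches were poorer for Dusp5 with Gngt2 (0.22, 0.49), Dusp10 with Cdk5rap1 (0.21, 0.43), Spred2 with Smim5 (0.17, 0.27) and Dusp4 with Wdr83 (0.08, 0.13), where the distance was a large part of the deviation.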

How the data were processed

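Total RNA was extracted with TRIzol and made into libraries with a TruSeq RNA kit, per the labels. The authors deposited FPKM per gene and library in 1 table. TopHat, Cufflinks, Cuffdiff and build mm10 are named per the submitters' processing notes. Not given in the sources used here were versions, annotation and scaling. Gene positions and promoter windows are those of GRCm38.p6, the assembly of mm10.

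Values were taken to log2(FPKM + 1). Genes with at least 1 FPKM in at least 2 libraries, 12565 in all, entered 1 limma model (version 3.58.1, R 4.3.3) with a mean for each group, all 8 libraries and a variance trend. The prior had 2.28 degrees of freedom and the residual 5. P-values were adjusted over all tested genes with the Benjamini-Hochberg method at 0.05, and the code was tested on simulated data. Replicates are separately titled libraries, so p-values measure only their spread, and n = 2 or 3 limits precision. The members and lists were chosen with earlier results of these data known. Of each list, genes past the threshold, the 2 with the largest difference per comparison, and Dusp1, Spry4, Egr1, Fos and Kit could be named, as could the 2 nearest patterns per member among genes with a mean of at least 5 FPKM (small RNAs, predicted genes and receptor segments left out). Others were chosen after their values were seen. Lists are given by counts and medians. Alternatives changed the pseudocount, filter, libraries, scaling, variance trend and replicate block. Tables used pandas 2.3.3 and NumPy 2.4.6 under Python 3.11.15, and figures matplotlib 3.10.9.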

Additional observations from a re-analysis of the deposited data

How the results depend on the processing

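Under 18 alternatives limma called 0 of the 10 genes and 0 of the list genes that were tested in each; a filter at 5 FPKM left 5 of the 10 and 69 list genes, without Dusp4, Dusp5, Dusp10, Spry1 and Spry2. The log2 difference of Dusp2 was 1.23 to 1.56 in the fusion comparison (AE+Meis2 against AE9a+Meis2) and 1.22 to 2.13 in the joint one (AE+Meis2 against AE9a). Of 474 values of single genes under alternatives, 9 moved by more than the spread between libraries and 35 turned sign. With each library left out in turn, the median of the 9 genes ran from -0.36 to 0.058 in the Meis2 comparison (AE9a+Meis2 against AE9a), 0.15 to 0.41 in the fusion comparison and -0.17 to 0.11 in the joint one. With small RNAs left out and the rest rescaled, the median of all genes was -0.13, -0.20 and -0.31 in that order, and the joint median of the 9 genes was -0.50.

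Counts of called genes over the whole table were unsteady, and the cause was not tested. The Meis2 comparison had 6, or 2 with the replicate block, 3 without both libraries that have values in unused gene families, and 2 to 9 with each library left out. The fusion comparison had 5, or 14 with small RNAs left out and 6 to 23 with each library left out, the count of 23 being without AE+Meis2 replicate 3. The joint comparison had 4, or 1 with no filter, 2 with only its own libraries, and 1 to 10 with each library left out. It had 0 by limma with small RNAs left out (926 at an unadjusted p under 0.05) and 0 by limma with the replicate block (688 unadjusted). The labels do not say whether the replicate numbers pair the libraries. Over 7 same-numbered pairs the correlation of deviations was -0.03 to 0.13. With 2 or 3 libraries per group such values cannot tell whether libraries share a donor or batch. Depth limits low genes such as Dusp4.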

Other observations

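Some kinase and receptor genes outside the 10, chosen after their values were seen, also had their extremes in AE+Meis2 replicates 2 and 3. Mapk3, which encodes ERK1, was at 68.8, 18.3 and 212 FPKM in AE+Meis2, against 64.4, 64.3 and 91.2 FPKM in AE9a+Meis2 and 53.5 and 68.5 FPKM in AE9a. Mapk13, a p38 kinase gene, was at 23.5, 1.67 and 164 FPKM in AE+Meis2, against 13.1, 24.4 and 41.8 FPKM in AE9a+Meis2 and 14.6 and 17.9 FPKM in AE9a. Csf3r, the receptor of granulocyte colony-stimulating factor, was at 35.4, 11.0 and 345 FPKM in AE+Meis2, against 52.4, 44.9 and 96.1 FPKM in AE9a+Meis2 and 19.3 and 43.4 FPKM in AE9a.

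Erythroid markers summed to 491 to 4401 FPKM in AE+Meis2, 1044 to 2906 FPKM in AE9a+Meis2 and 1327 to 2243 FPKM in AE9a. Mast cell markers summed to 1347 to 3778 FPKM in AE+Meis2, 628 to 1769 FPKM in AE9a+Meis2 and 963 to 1966 FPKM in AE9a, and B-cell markers to 36.5 to 72.0 FPKM in AE+Meis2, 29.2 to 112 FPKM in AE9a+Meis2 and 60.0 to 67.1 FPKM in AE9a. Stem and progenitor markers summed to 241 to 564 FPKM in AE+Meis2, 158 to 261 FPKM in AE9a+Meis2 and 227 to 349 FPKM in AE9a.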
